A study of Mus musculus with 4 samples.

Results

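The glutathione, thioredoxin and NRF2 antioxidant genes are 47 genes that make and use glutathione, thioredoxin and NADPH or that detoxify oxidants and reactive carbonyls. They were taken by gene symbol from the 24907 genes of the deposited count table, and each of the 47 had a row. They were measured by RNA-seq in ASZ001, a mouse basal cell carcinoma line. Cells given a doxycycline-inducible vector that encodes c-FOS, with doxycycline (2 libraries), were compared with cells given the same kind of vector without an insert, also with doxycycline (2 libraries). Doxycycline was thus common to both groups, and no c-FOS vector cells without it were included, so c-FOS and any other difference between the 2 transfected cell populations cannot be told apart. Nothing in the labels says whether libraries of a group came from separate cultures; the p-values reflect only the variation between these libraries, which may be technical.

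Glutathione and thioredoxin are the main thiol systems by which cells reduce hydrogen peroxide and lipid peroxides, and both are recharged with electrons from NADPH. NRF2, encoded by Nfe2l2, is the factor that drives many of these genes through antioxidant response elements in their promoters, and KEAP1 holds it at low levels until oxidants or electrophiles release it. The antioxidant response element resembles the site bound by AP-1, the dimer of FOS and JUN proteins, and in epidermis these genes are known for their part in the response to ultraviolet light and chemical carcinogens.

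The libraries held 29200592 and 32465409 deposited counts in the c-FOS group and 28405433 and 29822437.5 in the control group. Fos had 296.8 and 313.4 CPM (rounded deposited counts scaled to a common library size) in the c-FOS libraries, against 0.404 and 0.351 CPM in the control libraries, as labelled. The basal keratinocyte markers Krt5, Krt14 and Trp63, which define the labelled cell type, were expressed in every library, and 6 of 7 such markers were lower with c-FOS. Their summed level was 13400 and 13700 CPM in the c-FOS libraries, against 26900 and 26800 CPM in the control libraries. Markers of other cell types also differed. Of 4 tested fibroblast markers 3 were higher with c-FOS, as were all 3 tested leukocyte and all 3 tested endothelial markers. The fibroblast marker Pdgfrb, at 0 in both control libraries, and the leukocyte marker Csf1r had enough counts only through the c-FOS libraries. Their calls add no support to these counts. Neither of 2 tested melanocyte markers passed. Over all tested genes, 33.8% were higher and 33.3% lower. The rest of the 8 fibroblast, 9 leukocyte, 5 endothelial and 5 melanocyte markers had too few counts to test. Among these were Ptprc, Adgre1, Itgam, Cdh5, Col3a1 and Dcn, and Dcn stood lower with c-FOS (mean 0.137 against 0.455 CPM). The fibroblast sum was 17.7 and 19.2 CPM in c-FOS libraries against 5.45 and 5.68 CPM in controls, the leukocyte sum 41.6 and 45 CPM against 18.9 and 17 CPM, and the endothelial sum 216 and 212 CPM against 113 and 113 CPM. Most of the leukocyte difference was Csf1r, at 18.4 and 18.5 CPM against 0.404 and 0.224 CPM. Most of the endothelial sum was Pecam1 (101 and 100.3 against 83.1 and 79.5 CPM) and Flt1 (113.1 and 109.5 against 29.2 and 32.6 CPM). Thy1, Cd3e, Kdr, Tyr and Mlana were at 0 in all 4 libraries. The part of these shifts in the results was not tested, and in bulk RNA fewer cells of a type and less RNA per cell cannot be told apart.

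The antioxidant genes did not move as 1 block. Of the 47 genes, 42 had enough counts to be tested, and 16 of these were higher with c-FOS, 13 lower and 13 did not pass (adjusted p of 0.05, edgeR's quasi-likelihood test, Benjamini-Hochberg adjusted). These are 38.1% and 31.0% of the tested members, against 33.8% of all 12791 tested genes called higher and 33.3% called lower. In either direction, 69.0% of the tested members were called, against 67.1% of all tested genes. The share of members called was thus near the background in both directions. The median log2 fold change of the tested members was 0.06, or 0.06 with Sod3 at its lower bound, against -0.01 over all tested genes, and the median absolute log2 fold change was 0.37 against 0.32. Changes of at least 0.5 on the log2 scale were called for 6 members upward and 4 downward, where the background was 16.0% upward and 16.1% downward. The groups did not overlap for 38 of the 42 tested members, against a background of 83.6%. Sod3 is among the 16 higher, the 6 upward and the 38. It was at 0 in both control libraries and passed the filter through the c-FOS libraries alone, so it adds no support to these counts. Several families held both a gene that rose and a gene that fell.

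The balance depended on how the libraries were scaled to each other. When library totals replaced TMM factors, 13 members were higher, 19 lower and 10 did not pass, and the median log2 fold change over all tested genes was -0.14. The median of the members was then -0.08, so its sign changed, but relative to all genes it stayed slightly above. Of all genes called, 50.3% were higher with TMM factors and 35.4% with library totals.

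**Figure D1:**
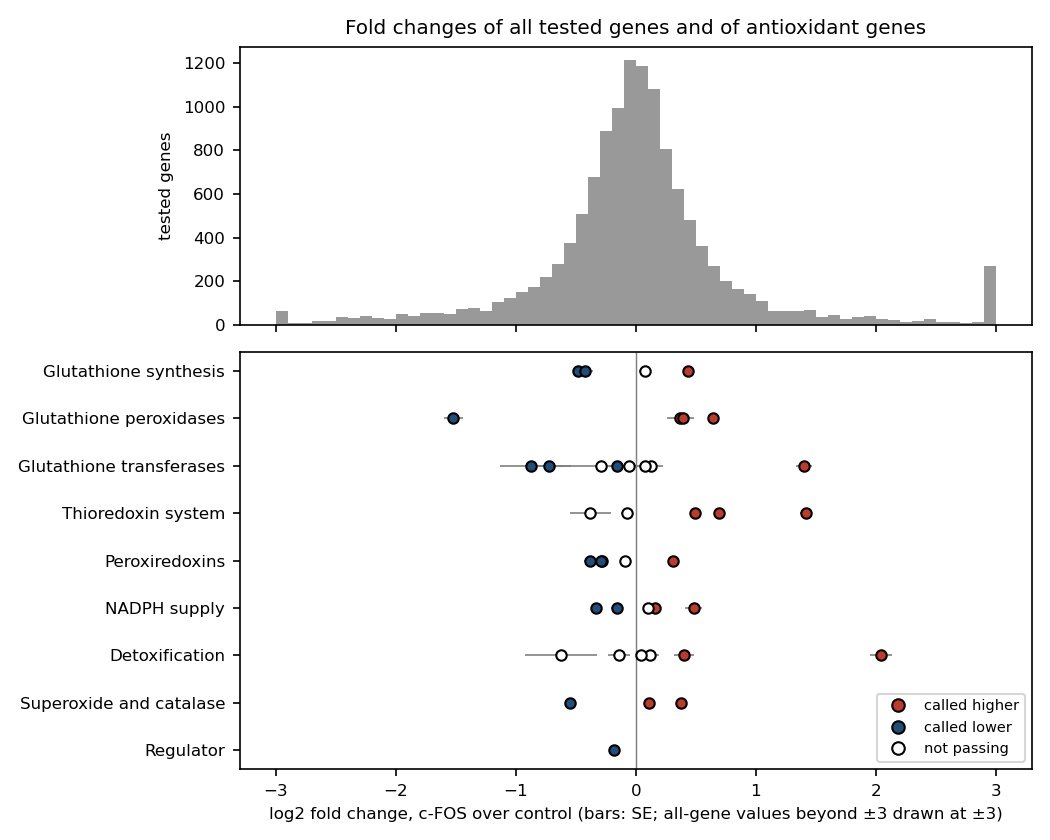
The upper panel is a histogram of log2 fold changes, c-FOS over control, of the 12791 tested genes, and the lower panel gives the tested members by functional group with SE bars and the call by colour. Members lie on both sides of 0 in most groups, with Akr1b8 at 2.04 and Gpx2 at -1.52 as the extremes drawn; Sod3, at 0 counts in both control libraries, is left out, and all-gene values beyond 3 in either direction are drawn at 3.

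Promoter windows were examined because the antioxidant response element and the AP-1 site are related in sequence. RefSeq windows on build GRCm38.p6, 250 bases before to 50 bases after the gene start, were found by symbol for 41 of the 47 members, all but Gclc, Gsr, Gsta4, Prdx6, Hmox1 and Sod3. The motifs were searched on both strands: the core of the antioxidant response element, TGACNNNGC, and the AP-1 site, TGANTCA, which can overlap. The first was present in 11 of 41 members (26.8%), against 14.0% of 27025 genes with a window, and the second in 6 of 41 (14.6%), against 8.97%. Both stood in the windows of Srxn1, Prdx1, Me1 and Gstm5 (9.76% of members, against 1.34% of all genes). These shares describe the members and carry no test. Of the 11 members with the first motif, 6 were called higher, 3 lower and 1 did not pass, and 1 was not tested; of the 30 without it, 7 were higher, 8 lower, 11 did not pass and 4 were not tested. Of the 6 with an AP-1 site, 3 were higher, 2 lower and 1 did not pass. Neither motif went with a single direction, and over all tested genes too 33.8% were higher and 33.3% lower. No match says only that these letters were not in the window.

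The 4 windows with both motifs are shown because 3 belong to genes that rose and 1 to a gene that fell, and the Gclm window because it has the first motif but no AP-1 site and belongs to a gene that fell. They run 5′ to 3′ on the gene's strand, with both motifs in capitals. In Me1 and Prdx1 the motifs overlap within 1 run of capitals; in Prdx1 another AP-1 site stands at bases -237 to -231. In Srxn1 the AP-1 sites stand at -102 to -96 and -45 to -39, and the antioxidant core lies past the start, at 29 to 37.
Srxn1 promoter (chr2:152105274-152105573, plus strand): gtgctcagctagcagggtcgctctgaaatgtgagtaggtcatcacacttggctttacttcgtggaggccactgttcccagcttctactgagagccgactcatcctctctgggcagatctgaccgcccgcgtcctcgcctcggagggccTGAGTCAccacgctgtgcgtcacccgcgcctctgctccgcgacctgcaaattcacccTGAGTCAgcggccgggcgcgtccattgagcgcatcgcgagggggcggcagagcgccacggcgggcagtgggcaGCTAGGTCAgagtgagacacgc
Prdx1 promoter (chr4:116685349-116685648, plus strand): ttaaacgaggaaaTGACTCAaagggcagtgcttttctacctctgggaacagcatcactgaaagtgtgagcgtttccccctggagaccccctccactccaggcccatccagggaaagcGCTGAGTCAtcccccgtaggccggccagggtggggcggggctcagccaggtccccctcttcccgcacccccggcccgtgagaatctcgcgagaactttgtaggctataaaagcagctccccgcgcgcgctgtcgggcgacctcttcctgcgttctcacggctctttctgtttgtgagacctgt
Me1 promoter (chr9:86695865-86696164, minus strand): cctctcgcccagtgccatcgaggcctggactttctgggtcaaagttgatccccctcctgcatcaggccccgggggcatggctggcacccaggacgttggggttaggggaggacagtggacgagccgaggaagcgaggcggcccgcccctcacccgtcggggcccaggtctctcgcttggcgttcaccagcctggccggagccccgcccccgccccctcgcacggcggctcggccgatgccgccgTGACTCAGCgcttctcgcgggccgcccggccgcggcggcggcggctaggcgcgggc
Gstm5 promoter (chr3:107895604-107895903, plus strand): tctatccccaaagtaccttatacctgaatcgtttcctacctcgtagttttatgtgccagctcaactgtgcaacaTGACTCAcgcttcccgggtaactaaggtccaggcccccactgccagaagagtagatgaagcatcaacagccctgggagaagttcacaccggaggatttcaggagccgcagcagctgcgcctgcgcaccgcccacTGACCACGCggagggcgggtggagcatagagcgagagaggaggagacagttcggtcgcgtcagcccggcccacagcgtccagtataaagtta
Gclm promoter (chr3:122245307-122245606, plus strand): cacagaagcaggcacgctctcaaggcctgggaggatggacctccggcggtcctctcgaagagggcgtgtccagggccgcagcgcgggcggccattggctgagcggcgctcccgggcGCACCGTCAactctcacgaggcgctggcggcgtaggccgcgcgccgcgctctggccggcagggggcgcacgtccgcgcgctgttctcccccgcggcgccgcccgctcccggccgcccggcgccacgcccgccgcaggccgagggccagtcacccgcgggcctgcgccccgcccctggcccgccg

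**Figure D2:**
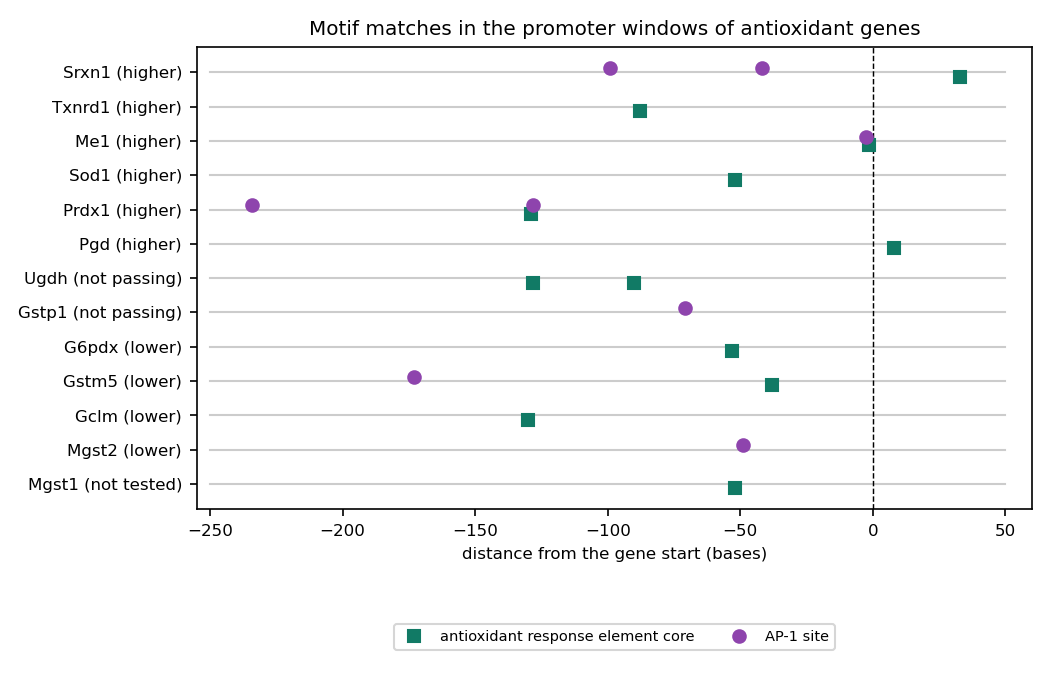
Positions of the antioxidant response element core (squares) and the AP-1 site (circles) in the windows of the 13 members that hold either, by distance in bases from the gene start, ordered from the highest log2 fold change (Srxn1, 1.42) to the lowest, with the untested Mgst1 last. Genes called higher and lower both carry each motif.

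Both genes of the first enzyme of glutathione synthesis fell, and the gene that recycles glutathione rose. Glutathione is made by glutamate-cysteine ligase, the rate-limiting enzyme, whose catalytic subunit is encoded by Gclc and whose modifier subunit is encoded by Gclm, and then by glutathione synthetase (Gss), while glutathione reductase (Gsr) regenerates it with NADPH. Gclc had 97.2 and 95.8 CPM in the c-FOS libraries, against 132.8 and 137.3 CPM in the control libraries. Gclm had 28.1 and 25.9 CPM in the c-FOS libraries, against 36.1 and 35.9 CPM in the control libraries. Both subunit genes were lower in each c-FOS library than in either control library, Gclc by a log2 fold change of -0.48 ± 0.04 (SE) and Gclm by -0.42 ± 0.06 (adjusted p = 1.07e-07 and 6.37e-05, edgeR's quasi-likelihood test, Benjamini-Hochberg adjusted). Their ratio per gene length was 2.17 ± 0.103 in c-FOS and 2.27 ± 0.0596 in control libraries (SD, n = 2 each), a difference no larger than the SD of the c-FOS libraries. Gsr had 110.3 and 110.3 CPM in the c-FOS libraries, against 81.5 and 82.1 CPM in the control libraries, and rose by 0.43 ± 0.04 (adjusted p = 3.51e-07, same test). Gss overlapped between the groups and did not pass (0.08 ± 0.05), but was called higher without control replicate 1 (0.16) and had the opposite sign with library totals (-0.06).

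Among the glutathione peroxidases, which reduce peroxides at the expense of glutathione, Gpx1, Gpx8 and Gpx4 rose and Gpx2 fell. Gpx1, the abundant cytosolic selenoenzyme, had 233.6 and 233.7 CPM in the c-FOS libraries, against 147.8 and 151.4 CPM in the control libraries. Gpx2, the selenoenzyme of gut and other epithelia, had 19.6 and 21.7 CPM in the c-FOS libraries, against 63.4 and 55.0 CPM in the control libraries. Neither pair of groups overlapped, and the log2 fold changes were 0.64 ± 0.04 for Gpx1 and -1.52 ± 0.08 (SE) for Gpx2 (adjusted p = 2.29e-09 and 4.77e-10, edgeR's quasi-likelihood test, Benjamini-Hochberg adjusted). On the scale of CPM per kilobase of gene length, the Gpx1 to Gpx2 ratio was thus 12.2 and 11.0 in the c-FOS libraries, against 2.38 and 2.81 in the control libraries. Gpx1 made up 63.1 ± 0.798% of the family's summed level in c-FOS cells and 50.4 ± 0.882% in control cells, and Gpx2 5.46 ± 0.316% and 19.6 ± 1.96% (SD, n = 2 each).

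Gpx8, a membrane enzyme of the endoplasmic reticulum, had 100.6 and 103.5 CPM in c-FOS libraries against 76.0 and 79.9 CPM in controls (log2 fold change 0.39), and made up 28.4 ± 0.212% of the family with c-FOS, against 27.1 ± 0.945% in control cells (SD, n = 2 each). Gpx4, which protects membranes from lipid peroxides, had 9.53 and 11.1 CPM in the c-FOS libraries, against 7.73 and 8.24 CPM in the control libraries. Its log2 fold change was 0.37 ± 0.11 (SE, adjusted p = 0.00725, edgeR's quasi-likelihood test, Benjamini-Hochberg adjusted), but it did not pass with library totals (0.23), in DESeq2 (0.37) or without c-FOS replicate 2 (0.26). Gpx7 was listed at 0 in all libraries. Its adjacent genes, Shisal2a and Tut4, had no counts listed under those symbols. The next genes out, Coa7 and Prpf38a, had 153 to 226 and 767 to 1167 deposited counts per library. Whether Gpx7 is silent or was missed in counting cannot be told apart from these values. Gpx3, the secreted enzyme of plasma, had 5 rounded counts over both c-FOS libraries and 0 in the controls, too few to test. The annotation marks 24 genes as selenoproteins, of which 6 are among the 47 members. Of the 5 tested, Gpx1, Gpx4 and Txnrd1 were higher, Gpx2 was lower and Txnrd2 did not pass. Over all tested genes 33.8% were higher and 33.3% lower.

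Glutathione transferases, which attach glutathione to electrophiles, had 1 gene that rose, the microsomal enzyme gene Mgst3. Of 10 genes, 8 were tested, 3 fell and 4 did not pass, beside 33.8% higher and 33.3% lower over all tested genes. Mgst3 had 36.2 and 39.2 CPM in the c-FOS libraries, against 14.1 and 14.4 CPM in the control libraries. It rose by 1.40 ± 0.07 (SE) on the log2 scale (adjusted p = 7.66e-10, edgeR's quasi-likelihood test, Benjamini-Hochberg adjusted), and its share of the family per gene length was 15.4 ± 0.26% with c-FOS against 6.57 ± 0.403% in controls (SD, n = 2 each). Gsto1, of the omega class, was the most abundant member per length, with 270.6 and 278.1 CPM in the c-FOS libraries, against 269.4 and 250.5 CPM in the control libraries. Its groups lay close together without overlap and it did not pass (0.08 ± 0.04), but it was called higher without control replicate 1 (0.13), and its sign turned with library totals (-0.06).

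The genes that fell in this family were low or changed slightly. Gstm1, of the mu class, had 1.69 and 2.20 CPM in the c-FOS libraries, against 3.26 and 3.19 CPM in the control libraries (log2 fold change -0.72 ± 0.18, SE). Mgst2, a microsomal enzyme, had 0.827 and 0.678 CPM in the c-FOS libraries, against 1.41 and 1.34 CPM in the control libraries (-0.87 ± 0.26). Both were lower in each c-FOS library (adjusted p = 0.003 and 0.00864, edgeR's quasi-likelihood test, Benjamini-Hochberg adjusted), but Mgst2 did not pass in DESeq2 (-0.87) or without c-FOS replicate 2 (-0.73). Gstm1 fell by 0.55 without c-FOS replicate 1 and by 0.93 without c-FOS replicate 2. Gstm5 was lower by a small margin (-0.16) and did not pass in DESeq2 (-0.16), without c-FOS replicate 1 (-0.15) or without c-FOS replicate 2 (-0.17). Gsta4, Gstm2 and Gstp1, with log2 fold changes of 0.13, -0.29 and -0.06, did not pass, though Gstp1 was called lower with library totals (-0.19). Mu class genes, and Gstp1 with its near copy Gstp2, resemble each other closely, so reads may be split between them and their values are uncertain. Gstt1 and Mgst1 had too few counts to test.

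**Figure D3:**
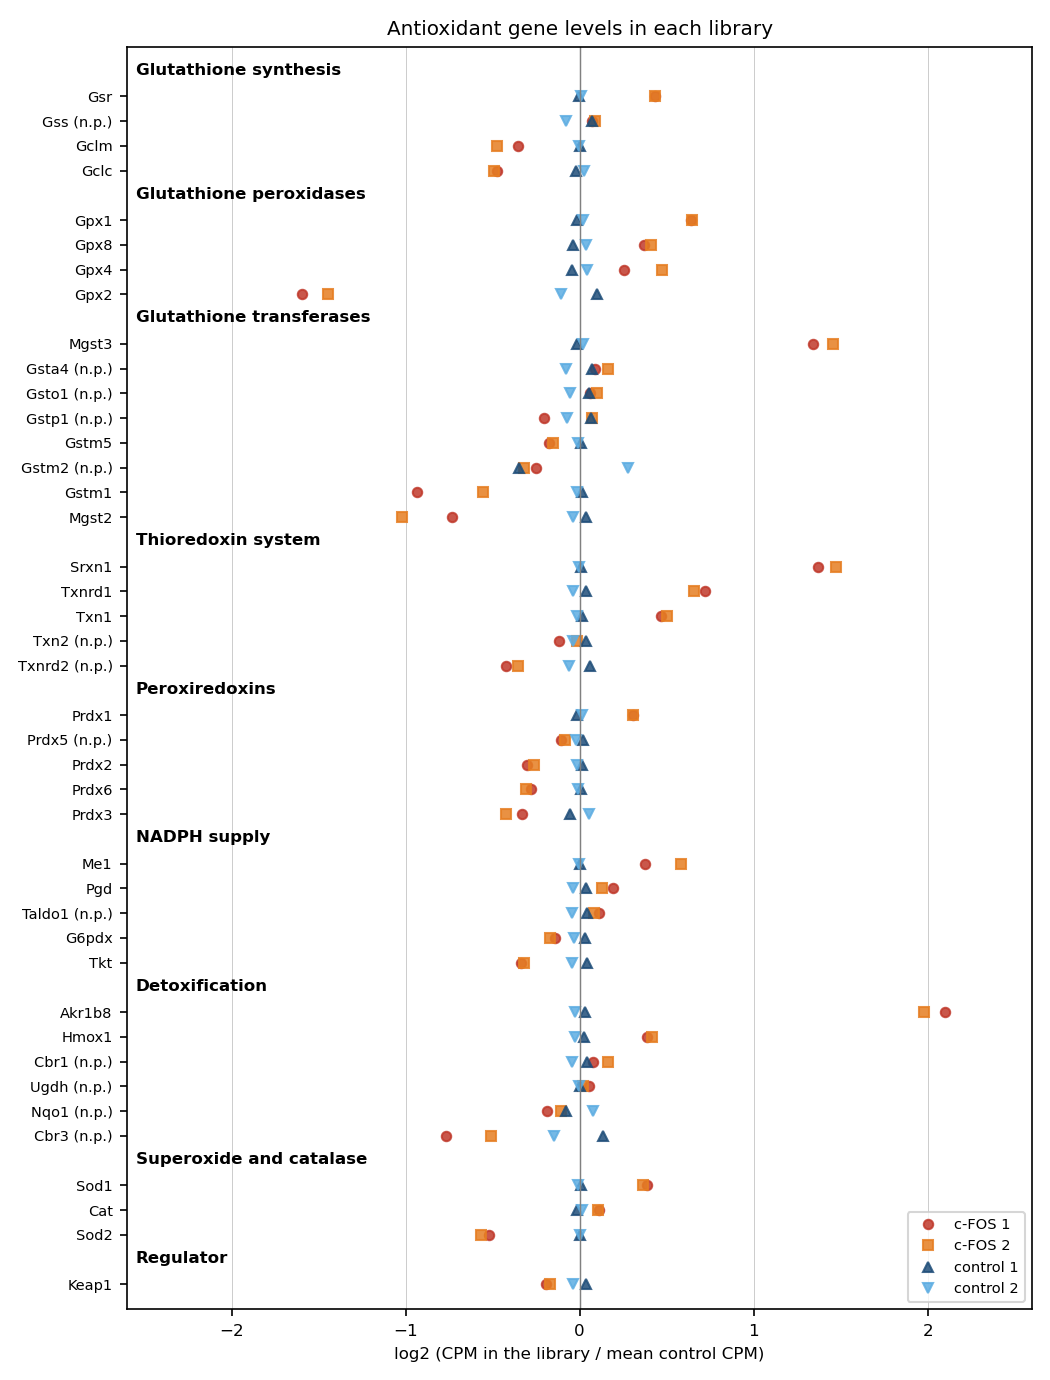
Each point is log2 of the CPM in 1 library over the mean control CPM, for 41 tested members by functional group, with c-FOS libraries as circles and squares, control libraries as triangles, and members that did not pass marked n.p.; Sod3 is left out since its control level was 0. Both c-FOS points of Srxn1, Mgst3 and Akr1b8 lie above 1, and those of Gpx2 lie below -1.

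In the thioredoxin system 3 of 5 genes rose, all of them cytosolic, and the 2 mitochondrial genes did not pass. Beside this count stand 33.8% higher and 33.3% lower over all tested genes. Thioredoxin passes electrons from NADPH, through thioredoxin reductase, to the peroxiredoxins, and sulfiredoxin (Srxn1) restores peroxiredoxins that peroxide has over-oxidized. Txn1, the cytosolic thioredoxin and the most abundant of the 47 transcripts per length in both groups, had 629.4 and 646.3 CPM in the c-FOS libraries, against 460.5 and 450.8 CPM in the control libraries. Txnrd1, the cytosolic reductase, had 138.1 and 132.1 CPM in the c-FOS libraries, against 86.0 and 81.9 CPM in the control libraries. Srxn1, whose window with both motifs is printed above, had 95.5 and 102.6 CPM in the c-FOS libraries, against 37.1 and 36.9 CPM in the control libraries. None of these 3 genes overlapped between groups, and all 3 were higher, by 0.49 ± 0.04, 0.69 ± 0.04 and 1.42 ± 0.05 (SE) on the log2 scale (adjusted p = 3.3e-08, 5.75e-09 and 1.09e-11, edgeR's quasi-likelihood test, Benjamini-Hochberg adjusted).

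The mitochondrial thioredoxin Txn2 had 73.3 and 79.0 CPM in the c-FOS libraries, against 81.8 and 77.7 CPM in the control libraries. The groups overlapped and Txn2 did not pass (-0.07 ± 0.05), though it was called lower with library totals (-0.20), with upper-quartile factors (-0.13) and without control replicate 2 (-0.10). The mitochondrial reductase Txnrd2 had 2.34 and 2.45 CPM in the c-FOS libraries, against 3.26 and 3.002 CPM in the control libraries (-0.38 ± 0.17, adjusted p = 0.054, edgeR's quasi-likelihood test, Benjamini-Hochberg adjusted). It stood lower without overlap and was called with library totals (-0.52), with upper-quartile factors (-0.45) and with no filter on low counts (-0.39). Per gene length the Txn1 to Txn2 ratio was 10.3 ± 0.35 in c-FOS and 6.99 ± 0.147 in control cells, and the Txnrd1 to Txnrd2 ratio was 31.3 ± 2.07 and 14.9 ± 0.359 (SD, n = 2 each). Each pair of ratios differed by more than the spread between libraries.

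Of the 6 peroxiredoxins, abundant thiol peroxidases, 5 were tested: Prdx1 rose, Prdx2, Prdx3 and Prdx6 fell, and Prdx5 did not pass. Beside these calls stand 33.8% higher and 33.3% lower over all tested genes. Prdx1, a cytosolic enzyme, had 313.5 and 312.6 CPM in the c-FOS libraries, against 250.2 and 255.7 CPM in the control libraries. Prdx2, the other abundant cytosolic enzyme, had 271.1 and 279.4 CPM in the c-FOS libraries, against 338.1 and 331.0 CPM in the control libraries. The groups did not overlap for either, and the log2 fold changes were 0.31 ± 0.04 and -0.28 ± 0.04 (SE; adjusted p = 3.81e-06 and 1.15e-05, edgeR's quasi-likelihood test, Benjamini-Hochberg adjusted). Their order differed between the groups: per gene length Prdx1 was the leading peroxiredoxin in c-FOS cells, at 39.7 ± 0.242% of the family, against 30.8 ± 0.464% in control cells, where Prdx2 led with 41.0 ± 0.627% (35.2 ± 0.611% with c-FOS; SD, n = 2 each). The mitochondrial Prdx3 fell by 0.38 and Prdx6, which also has phospholipase activity, by 0.29 on the log2 scale. Prdx5 did not pass (-0.09), but was called lower with library totals (-0.23), with upper-quartile factors (-0.16) and without control replicate 2 (-0.11). Prdx4, the enzyme of the endoplasmic reticulum, was listed at 0 in all 4 libraries, and here too a silent gene and one missed in counting cannot be told apart. Srxn1 per Prdx1 transcript, per gene length, was 0.153 and 0.165 in the c-FOS libraries, against 0.0744 and 0.0723 in the control libraries.

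**Figure D4:**
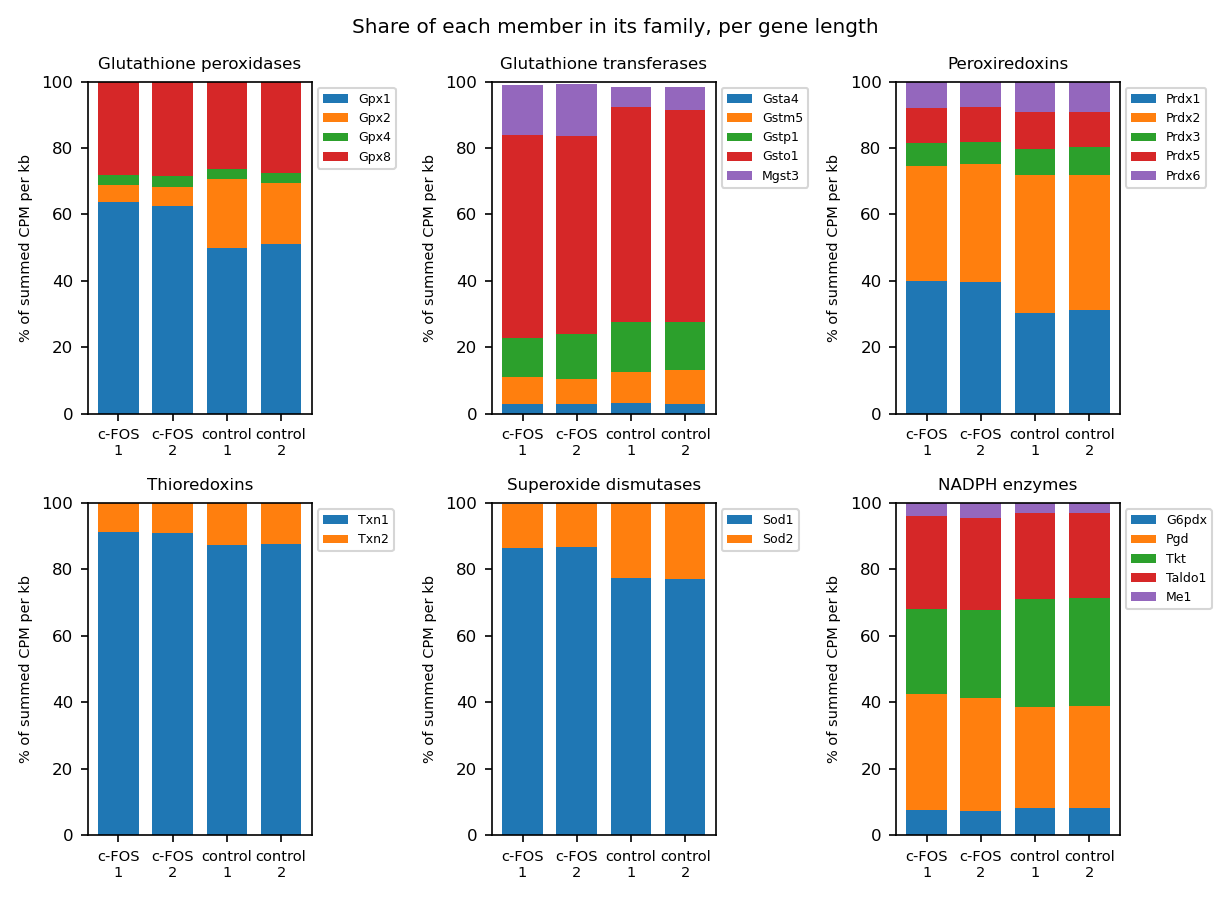
Stacked bars give each gene's percent of its family's summed CPM per kilobase in each library, with c-FOS libraries on the left and control libraries on the right of each panel; genes under 1% in both groups are not drawn. The Gpx1, Prdx1 and Mgst3 bars are taller, and the Gpx2, Prdx2 and Sod2 bars shorter, in the c-FOS libraries.

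Of the 5 members that supply NADPH, Me1 and Pgd rose, Tkt and G6pdx fell, and Taldo1 did not pass. Beside these calls stand 33.8% higher and 33.3% lower over all tested genes. Glucose-6-phosphate dehydrogenase (G6pdx) and 6-phosphogluconate dehydrogenase (Pgd) yield NADPH in the pentose phosphate pathway, transketolase (Tkt) and transaldolase (Taldo1) recycle its sugars, and malic enzyme (Me1) yields NADPH from malate. Tkt had 237.6 and 241.1 CPM in the c-FOS libraries, against 309.1 and 291.7 CPM in the control libraries, and fell by 0.33 ± 0.04 (SE). Me1, whose overlapping motifs are shown above, had 36.6 and 42.3 CPM in the c-FOS libraries, against 28.3 and 28.2 CPM in the control libraries, and rose by 0.48 ± 0.07. Pgd, the most abundant of the 5 per length in c-FOS cells, where Tkt led in control cells, had 214.8 and 206.0 CPM in the c-FOS libraries, against 193.3 and 183.6 CPM in the control libraries (0.16 ± 0.04). These 3 did not overlap between groups (adjusted p = 4.98e-06, 4.26e-05 and 0.0034, edgeR's quasi-likelihood test, Benjamini-Hochberg adjusted), but Pgd did not pass with library totals (0.02), with upper-quartile factors (0.10) or without c-FOS replicate 1 (0.13). G6pdx was called lower (-0.16) but did not pass in DESeq2 (-0.15), without c-FOS replicate 1 (-0.17) or without c-FOS replicate 2 (-0.14). Taldo1 did not pass (0.10), was called higher without control replicate 1 (0.14) and changed sign with library totals (-0.04).

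The detoxifying enzymes included the member with the largest change among those expressed in both groups. Akr1b8, an aldo-keto reductase that reduces reactive aldehydes, had 22.9 and 21.1 CPM in the c-FOS libraries, against 5.45 and 5.24 CPM in the control libraries. It rose by 2.04 ± 0.09 (SE) on the log2 scale, a 4.11-fold difference (adjusted p = 2.12e-10, edgeR's quasi-likelihood test, Benjamini-Hochberg adjusted). Akr1b8 resembles other aldo-keto reductase genes in sequence, and reads may be shared between them. Hmox1, the inducible haem oxygenase, had 20.7 and 21.2 CPM in the c-FOS libraries, against 16.2 and 15.6 CPM in the control libraries, and rose by 0.40 ± 0.08 (adjusted p = 0.000346, same test).

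Nqo1, the quinone reductase often used as a readout of NRF2, had 12.0 and 12.7 CPM in the c-FOS libraries, against 13.0 and 14.4 CPM in the control libraries. It stood slightly lower and did not pass (-0.14 ± 0.09, adjusted p = 0.174, edgeR's quasi-likelihood test, Benjamini-Hochberg adjusted), but was called lower with library totals (-0.28). Ugdh, which makes UDP-glucuronic acid for conjugation and was the most abundant of these enzymes per length, had 71.8 and 70.0 CPM in the c-FOS libraries, against 69.2 and 68.9 CPM in the control libraries. It did not pass (0.04 ± 0.04), and its sign turned with library totals (-0.10) and upper-quartile factors (-0.02). The carbonyl reductase genes Cbr1 (0.12 ± 0.07) and Cbr3 (-0.62 ± 0.30) did not pass either; Cbr1 was called higher without control replicate 1 (0.17) and had the opposite sign with library totals (-0.02), and Cbr3 was called lower with library totals (-0.76).

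Superoxide dismutases, which turn superoxide into hydrogen peroxide, went opposite ways in the cytosol and the mitochondria. The cytosolic Sod1 had 71.8 and 70.7 CPM in the c-FOS libraries, against 55.1 and 54.5 CPM in the control libraries. The mitochondrial Sod2 had 66.6 and 64.5 CPM in the c-FOS libraries, against 95.7 and 95.7 CPM in the control libraries. The groups did not overlap, with log2 fold changes of 0.38 ± 0.04 and -0.55 ± 0.04 (SE; adjusted p = 4.28e-06 and 5.38e-08, edgeR's quasi-likelihood test, Benjamini-Hochberg adjusted). Sod1 made up 86.4 ± 0.178% of the 3 genes' summed level per length with c-FOS, against 77.3 ± 0.137% in control cells (SD, n = 2 each). Sod3, the extracellular enzyme, had 32 rounded counts over the c-FOS libraries (0.647 and 0.452 CPM) and 0 in both control libraries, so it was at least 11.1-fold higher with c-FOS, taking 3 counts over the control group as the upper limit of a count of 0, which covers counting error only. It passed the filter through the c-FOS libraries alone, so its call adds no support to a count. Catalase (Cat), which breaks down hydrogen peroxide in peroxisomes, had 218.4 and 217.8 CPM in the c-FOS libraries, against 200.1 and 204.1 CPM in the control libraries. It was called higher by 0.11 ± 0.04, but had the opposite sign with library totals (-0.03) and did not pass with upper-quartile factors (0.05), without c-FOS replicate 1 (0.11) or without c-FOS replicate 2 (0.11).

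Summed over each functional group as CPM per kilobase, the thioredoxin system differed most, at 736.2 and 757.7 in the c-FOS libraries, against 545.4 and 531.4 in the control libraries, a ratio of 1.39. The glutathione peroxidases summed to 352.5 and 359.0 in the c-FOS libraries, against 284.9 and 284.9 in the control libraries (ratio 1.25), and the detoxifying enzymes to 95.5 and 95.9 against 78.7 and 77.3 (ratio 1.23). These 3 sums were also higher with library totals, at ratios of 1.26, 1.14 and 1.12. The sums of glutathione synthesis (ratio 0.974), peroxiredoxins (0.958) and NADPH supply (0.991) were below 1, and lower still with library totals (0.886, 0.871 and 0.901), but the NADPH ratio was 1.02 without control replicate 1. The transferases (1.12) and the superoxide and catalase genes (1.13) had ratios above 1, which were 1.02 and 1.03 with library totals. With 2 libraries against 2, an exact two-sided permutation test cannot give a p below 0.333, so these sums are given as values. Txn1 alone carried 611 ± 11.5 CPM per kilobase in c-FOS cells and 436 ± 6.61 in control cells (SD, n = 2 each) of the thioredoxin sum. Most of the rise in the detoxification sum was Akr1b8, at 16.7 with c-FOS against 4.06 in control cells, while 4 of 6 members did not pass. Most of the rise in the transferase sum was Mgst3, at 60.1 against 22.7, while 3 of 8 tested members fell.

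Keap1, the substrate adaptor through which NRF2 is degraded, had 83.3 and 84.7 CPM in the c-FOS libraries, against 97.7 and 92.8 CPM in the control libraries. It fell by 0.18 ± 0.04 (SE) on the log2 scale (adjusted p = 0.0021, edgeR's quasi-likelihood test, Benjamini-Hochberg adjusted), with no overlap between groups. Nfe2l2, which encodes NRF2 itself, had 68.8 and 68.3 CPM in the c-FOS libraries, against 67.3 and 68.8 CPM in the control libraries. These overlapped and did not pass (0.01 ± 0.04), and the sign was negative with library totals (-0.13, called lower) and upper-quartile factors (-0.05). Of 13 listed NRF2 regulators, all tested, 7 rose, 2 fell and 4 did not pass, beside 33.8% higher, 33.3% lower and 67.1% called in either direction over all tested genes. Bach1, a haem-regulated repressor that competes with NRF2 at its elements, had 82.5 and 85.5 CPM in c-FOS libraries against 62.0 and 60.2 CPM in controls (0.46 ± 0.04), and the related Bach2 rose by 0.92 and the small Maf partner Mafk by 0.78. Sqstm1, which encodes the p62 adaptor that binds KEAP1, rose by 0.62 on the log2 scale, while Nfe2l3, an NRF2 relative, fell by 0.85; Rbx1, of the ligase that KEAP1 serves, was called lower (-0.28) but did not pass without c-FOS replicate 1 (-0.17).

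Of 19 listed genes that feed and turn over glutathione, 18 were tested, 3 rose, 11 fell and 4 did not pass, beside 33.8% higher and 33.3% lower over all tested genes. The median log2 fold change of these genes was -0.53, beside -0.01 over all tested genes; the list was chosen with earlier results of these data known, and no test of the list was made. Slc7a11, the cystine transporter that supplies cysteine for glutathione, had 8.92 and 7.75 CPM in the c-FOS libraries, against 19.2 and 20.1 CPM in the control libraries. Cbs, which begins the route from homocysteine to cysteine, had 0.935 and 0.839 CPM in the c-FOS libraries, against 6.99 and 6.04 CPM in the control libraries. Both fell, with log2 fold changes of -1.24 ± 0.09 for Slc7a11 and -2.87 ± 0.18 (SE) for Cbs. The aminopeptidase gene Anpep (-2.62) fell as well, as did the exporter gene Abcc3 (-3.59), which was below 1 CPM in every library. Abcc3 passed the filter through the control libraries alone, so its call adds no support to a count. Chac1, a cytosolic enzyme that cleaves glutathione, had 48.9 and 45.6 CPM in the c-FOS libraries, against 15.1 and 13.7 CPM in the control libraries, and rose by 1.72 ± 0.07. For these 5 genes the adjusted p ranged from 7.86e-11 (Chac1) to 1.64e-05 (Abcc3; edgeR's quasi-likelihood test, Benjamini-Hochberg adjusted).

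Other redox lists also went both ways, as did all tested genes, of which 33.8% were higher, 33.3% lower and 67.1% called in either direction. Of 9 tested glutathione transferase and related genes outside the 47, out of 17 listed, 6 fell and 3 rose. Those that fell were led by Gsta3 (-2.45) and the prostaglandin D synthase gene Hpgds (-1.84, mean 0.442 CPM with c-FOS against 1.59 CPM in control). Those that rose were led by Gstm7 (1.89), a low mu class gene that can share reads, and the prostaglandin E synthase gene Ptges (1.36). Gstm7 passed the filter only through the c-FOS libraries, so its call adds no support to a count. Of 18 glutaredoxin, sestrin, thioredoxin-like and methionine sulfoxide reductase genes, 6 rose and 8 fell. Txnip, which binds thioredoxin and blocks it, had 35.6 and 37.6 CPM in the c-FOS libraries, against 204.2 and 178.4 CPM in the control libraries, and fell by 2.38 ± 0.06 (SE) on the log2 scale (adjusted p = 5.85e-13, edgeR's quasi-likelihood test, Benjamini-Hochberg adjusted). Sesn3 (-0.98) and Sesn1 (-0.96), which encode sestrins, fell, and Txndc5, a disulfide isomerase gene, rose by 0.57. Of 16 further NADPH enzymes, 6 rose and 5 fell. The folate enzyme gene Aldh1l1 (1.89) rose from a low level, with a mean of 1.41 CPM with c-FOS against 0.376 CPM in control. The cytosolic isocitrate dehydrogenase gene Idh1 (0.56) also rose, with a mean of 125.7 against 85.2 CPM. The folate enzyme gene Mthfd1 (-0.81) and the mitochondrial Idh2 (-0.53) were among those that fell.

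Of 27 further detoxification, iron and haem genes, 22 were tested, 7 rose and 8 fell. Beside this count and those of the next lists stand 33.8% higher and 33.3% lower over all tested genes. Among the 7, Ces1g (1.93) passed the filter only through the c-FOS libraries, so its call adds no support to a count. The ferritin light chain gene Ftl1 had 1313 and 1334 CPM in the c-FOS libraries, against 593.4 and 577.1 CPM in the control libraries (log2 fold change 1.18). The ferritin heavy chain gene Fth1 went the other way, with 252.6 and 245.6 CPM in the c-FOS libraries, against 345.1 and 339.0 CPM in the control libraries (-0.46, called lower). Ptgr1, an NADPH-dependent reductase of eicosanoids and alkenals, rose by 1.86. Aldh3a1, an aldehyde dehydrogenase gene, fell by 1.80, and the glucuronosyltransferase genes Ugt1a6a and Ugt1a7c, which share exons and so reads, fell as well (-1.42 and -1.39). Of 8 tested oxidant-producing enzymes, 2 rose and 4 fell. The 2 that rose, Aox1 (3.69) and the NADPH oxidase gene Nox4 (2.31), were below 2 CPM in every library. Both passed the filter through the c-FOS libraries alone, so their calls add no support to a count. Of 9 tested ferroptosis genes, 4 rose and 2 fell. Tfrc, the transferrin receptor gene, had 71.3 and 61.5 CPM in the c-FOS libraries, against 204.2 and 241.7 CPM in the control libraries (-1.75), while Gch1, Acsl4 and Aifm2 rose by 1.11, 0.95 and 0.85. Over all 140 listed genes, 113 were tested, of which 38 were higher, 46 lower and 29 did not pass, beside 33.8% higher and 33.3% lower over all 12791 tested genes. These counts include Gstm7, Ces1g, Aox1, Nox4 and Abcc3, each of which passed the filter through its higher group only.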

How the data were processed

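RNA-seq was measured in 4 libraries of doxycycline-treated ASZ001 cells, 2 with a c-FOS vector and 2 with an empty vector, grouped by title. Per the labels' protocols, total RNA was made into libraries with an Illumina TruSeq kit. Per the series design text, filtered reads went through TopHat and HOMER. Per the submitters' processing notes, mm9 is the build and DESeq2 a further tool. The versions, the annotation and whether counting used strand are not stated in the sources here; without strand, overlapping genes on opposite strands cannot be told apart. The deposited values are unnormalized expected counts in steps of 0.5 (48.0% of those above 0 are not whole). Of 24909 rows, 2 repeated a symbol, and the row with the higher total was kept.

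Counts were rounded, those ending in 0.5 upward, and tested with edgeR 4.0.16 (R 4.3.3): TMM factors and filterByExpr with a minimum count of 10 and a minimum total of 15. Its quasi-likelihood test had group as the only term, was two-sided, and was adjusted by Benjamini-Hochberg over 12791 genes, with calls at 0.05. CPM use TMM library sizes; levels between genes use CPM per kilobase of the authors' gene length column. Errors are SD of CPM (n = 2) or SE of log2 fold changes. Replicates differed by more than sampling noise (chi-square per degree of freedom 1.93 in c-FOS and 4.82 in control). The differential test was tested on simulated counts and the motif search on made sequences. DESeq2 1.42.0, other scalings, filters and left-out libraries were alternatives. Members and lists were chosen with earlier results of these data known. Per-library values are given for members called with an absolute log2 fold change of at least 0.5, for Nqo1, Hmox1, Gclc, Gclm, Srxn1, Txnrd1 and Keap1, for the most abundant member per length of each functional group, and for some further members chosen after their values were seen. Of each further list, at most 3 called genes per direction are named, besides Nfe2l2, Bach1, Slc7a11 and Fth1. Promoters are RefSeq's, on GRCm38.p6, not the build of the counts, and selenoproteins are from GENCODE M21; no mm9 coordinates are given. The planned protein sequence search was replaced by that annotation. The values of 1 marker gene are not reported here.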

Additional observations from a re-analysis of the deposited data

How the results depend on the processing

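Over 12 alternatives, 455 of 499 values of the 42 tested members kept their direction and side of the threshold, 17 no longer passed, 16 newly passed and 11 changed sign. For 23 members, all called, call and direction held under every alternative in which they were tested (Sod3 was not tested without c-FOS replicate 1 or with a minimum count of 50); 6 others, namely Gpx4, Gstm5, Mgst2, G6pdx, Pgd and Cat, were called in the main setting and lost the call in at least 1. Sign changes with library totals were Gss (-0.06), Gsta4 (-0.01), Gsto1 (-0.06), Taldo1 (-0.04), Cbr1 (-0.02), Ugdh (-0.10; -0.02 with upper-quartile factors), Cat (-0.03) and Nfe2l2 (-0.13; -0.05 with upper-quartile factors, 0.00 without control replicate 1). By construction library totals leave out the scaling that moves the median gene. Gstm2 was 0.06 without control replicate 2, and Gstp1 was 0.02 without control replicate 1 and 0.08 without c-FOS replicate 1 (leave-one-out ranges -0.56 to 0.06 for Gstm2, -0.20 to 0.08 for Gstp1 and 0.00 to 0.03 for Nfe2l2); the cause was not tested. The summed NADPH ratio ranged from 0.965 to 1.02 with 1 library left out, and was above 1 without control replicate 1. Leaving out 1 library gave 13 to 20 members higher, 10 to 15 lower and 9 to 18 not passing, 3698 to 4520 genes higher, 3481 to 4358 lower and 4155 to 5870 not passing, and, of the 140 listed genes, 33 to 40 higher, 37 to 48 lower and 26 to 44 not passing (44 without c-FOS replicate 1). With no filter on low counts, 8596 genes did not pass, since 17464 were tested. With the replicate number as a block (replicate block), 16 members were higher, 13 lower and 13 did not pass, the same calls as without it, and 4246 genes were higher and 4218 lower. The labels do not say that numbers pair the libraries, and the deviations of same-numbered libraries correlated at -0.0838 over 12791 genes. Counting depth limits members near or below 1 CPM, such as Gstm2, Cbr3, Mgst2 and Sod3.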

Other observations

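Prdx4 was listed at 0 in all 4 libraries, while its nearest listed neighbours on 1 side of the X chromosome had counts: Acot9 had 488 to 973.5 and Sat1 329.5 to 546 per library. Gstt1 had 1 rounded count in all, and its neighbours Gstt3, Gstt4 and Gstt2 had totals of 7, 0 and 4.5, while the nearby Ddt had a total of 2379.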
